A study of Mus musculus with 29 samples.

Results

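Diet was compared in the atria of male control mice over 8 RNA-seq libraries, 4 from mice on a regular diet (Ctrl_RD) and 4 from mice on a high-fat diet (Ctrl_HFD), out of 29 libraries in 6 groups in the series. The 8 were chosen by their labels alone, and every expressed gene was examined. Mice labelled Ctrl carry no further genotype in the labels, and neither strain nor the make-up of the diets is given there. In all groups used here the diets began when the mice were 5 weeks old, and both high-fat groups were kept on theirs for 4 weeks. A regular-diet and a high-fat group of the genotype labelled NaV1.5 (4 and 5 libraries) entered the same fit and are used here only beside the control values; the labels give no promoter or allele for them. NaV1.5 is the main voltage-gated sodium channel of heart muscle. Ctrl_HFD replicate 4 is labelled batch 2, while the other 16 libraries of the diet experiment are labelled batch 1. With batch in the model this library carries no weight, so the main contrast sets Ctrl_HFD replicates 1 to 3 against Ctrl_RD replicates 1 to 4. Values of replicate 4 are printed last in each Ctrl_HFD series. Its batch label was followed, although its 20 most abundant genes took 31.1% of counts, within the 30.71 to 37.35% of the batch 1 libraries. The other batch 2 libraries of the series, from NaV1.5 mice given nicotinamide riboside on high-fat diet, were at 22.26 to 23.65%. Whether the label of replicate 4 is right was not tested. Whether every library is a different mouse is not stated in the labels, and the p-values below then cover just the spread among these libraries, which may be technical.

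Heart muscle draws most of its energy from long-chain fatty acids. They enter the cell through carriers such as CD36, pass into mitochondria by way of carnitine palmitoyltransferases and are shortened there by beta-oxidation. Malonyl-CoA inhibits the carnitine palmitoyltransferases of the outer mitochondrial membrane. The nuclear receptor PPAR-alpha, which fatty acids activate, drives many genes of this pathway, among them Pdk4, whose product holds back the use of glucose carbon. Cells meet misfolded protein with cytosolic heat shock chaperones and with a separate response of the endoplasmic reticulum.

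Total counts per library were 16040262 to 30365131 in Ctrl_RD and 16159281 to 33061018 in Ctrl_HFD. Atrial muscle markers were abundant in all 8, with a summed level of 87250 to 93670 CPM (CPM is the count scaled to the library's total, with TMM factors between libraries) in Ctrl_RD and 77990 to 89370 CPM in Ctrl_HFD. Markers of lung epithelium, a possible neighbour tissue, summed to at most 1.71 CPM. On the first principal component of the 8 libraries (24.1% of the variance) Ctrl_RD replicates 1 to 3 lay at -21.4, -21.5 and -23.7, Ctrl_RD replicate 4 at 16.5, and the Ctrl_HFD libraries between 0.07 and 27.1. Ctrl_RD replicate 4 thus lay among the high-fat libraries. Ctrl_HFD replicate 4 lay at 22.0, within the range of its own group.

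No gene passed the test for diet in control atria. With edgeR's quasi-likelihood test and Benjamini-Hochberg adjustment, 0 of 16168 genes (0%) had an adjusted p under 0.05, and the smallest was 0.267. An unadjusted p under 0.05 was found for 603 genes that were higher on high-fat diet (3.73%) and 769 that were lower (4.76%), 1372 in all where 808 would arise by chance. Other tools called more. DESeq2 called 19 genes (0.118%), 12 higher and 7 lower, and gave an adjusted p to only 3003 genes, the most abundant. With limma-voom 75 genes passed (0.464%), 32 higher and 43 lower, and 14 of the DESeq2 calls were among them. Without the batch term, which lets Ctrl_HFD replicate 4 in, edgeR called 1 gene (0.00619%), Itgb6. All 4 Ctrl_HFD libraries lay above all 4 Ctrl_RD libraries for 496 genes (3.07%) and below them for 469 (2.9%). The median log2 difference over all genes was -0.005. Differences below are log2 differences, Ctrl_HFD minus Ctrl_RD, with edgeR's adjusted p over all 16168 genes, and none of them passed edgeR's test with the batch term. Of 64 gene lists, 0 held a gene that passed.

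Of the 10 higher genes with the smallest p, 8 of the 10 had all 4 Ctrl_HFD libraries above all 4 Ctrl_RD libraries. These genes and the 10 lower ones below were picked by p on these same libraries. Separation of the groups and passing with another tool therefore partly follow from that choice. Ech1 (chromosome 7, 28825217 to 28832247, plus strand, GRCm38), which encodes an isomerase that prepares unsaturated fatty acids for beta-oxidation, was at 639, 548, 635 and 755 CPM in Ctrl_RD and at 1194, 1028, 899.6 and 967 CPM in Ctrl_HFD. The groups did not overlap, and the log2 difference was 0.69 (SE 0.13, adjusted p = 0.267), with DESeq2 at an adjusted p of 0.000328 and limma-voom at 0.0112. Itgb6 (chromosome 2, 60598292 to 60722643, minus strand), an integrin subunit typical of epithelia, was scarce, at 6.25, 4.69, 5.13 and 4.51 CPM on regular diet and 7.99, 9.69, 12 and 11.6 CPM on high-fat diet. It had the smallest p of all genes, with a difference of 0.93 (SE 0.17, adjusted p = 0.267), and without the batch term it was at 0.99 with an adjusted p of 0.0444 in edgeR. In whole atria a change in the number of cells of a type and a change in RNA per cell cannot be told apart.

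A pair of heart muscle genes stood among them with a reservation. Xirp2 (chromosome 2, 67173834 to 67526615, plus strand), an actin-binding protein of intercalated discs, was at 128, 135, 116 and 125 CPM in Ctrl_RD and 198, 166, 166 and 131 CPM in Ctrl_HFD. Slc8a1 (chromosome 17, 81373105 to 81738377, minus strand), the sodium-calcium exchanger, was at 175, 188, 152 and 172 CPM and 236, 247, 252 and 175 CPM. In both genes replicates 1 to 3 of the high-fat group lay above all regular-diet libraries and replicate 4 lay within their range. The differences were 0.49 (SE 0.10, adjusted p = 0.267) and 0.51 (SE 0.12, adjusted p = 0.48), and both genes passed with DESeq2 (adjusted p = 0.000891 and 0.0102). Serpinh1 (chromosome 7, 99345376 to 99353239, minus strand), the collagen chaperone of the endoplasmic reticulum, was at 291, 239.9, 278 and 258 CPM against 340.4, 387, 357 and 342 CPM, with no overlap and a difference of 0.44 (SE 0.11, adjusted p = 0.48). Cd274 (chromosome 19, 29367455 to 29388095, plus strand), an immune checkpoint ligand that interferon induces, was at 4.55, 5.25, 4.35 and 3.92 CPM against 6.9, 6.55, 7.87 and 8.61 CPM, again without overlap, at 0.65 (SE 0.16, adjusted p = 0.48). AW112010 (chromosome 19, 11047612 to 11055808, minus strand), a transcript of immune cells, was at 8.46, 9.13, 11.2 and 10.3 CPM against 17.7, 18.2, 15.9 and 24.9 CPM. Its groups lay apart with replicate 4 the highest, and the difference was 0.82 (SE 0.17, adjusted p = 0.43). The other 3 of the 10 were Chordc1, described with the chaperones, and the mitochondrial RNA genes mt-Tm and mt-Rnr1.

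The 10 lower genes with the smallest p included a pair with a part in the entry of fatty acids into mitochondria. In 7 of these 10 all 4 Ctrl_HFD libraries lay below all 4 Ctrl_RD libraries. Cpt1a (chromosome 19, 3322334 to 3385733, plus strand), a carnitine palmitoyltransferase of the outer mitochondrial membrane, was at 86.5, 95.4, 86.4 and 82.6 CPM in Ctrl_RD and 64.9, 66.8, 57.5 and 55.5 CPM in Ctrl_HFD. Mlycd (chromosome 8, 119394878 to 119411102, plus strand), the decarboxylase that removes malonyl-CoA, was at 135, 132, 131 and 134 CPM and 103, 96.7, 89.9 and 93.4 CPM. Neither gene's groups overlapped. The differences were -0.47 (SE 0.12, adjusted p = 0.48) and -0.46 (SE 0.11, adjusted p = 0.48), and DESeq2 gave both an adjusted p of 0.035. Vwf (chromosome 6, 125546774 to 125686679, plus strand), the clotting factor made by endothelium, was at 251, 255, 313 and 286 CPM on regular diet and 143, 136, 189 and 179 CPM on high-fat diet. Its difference of -0.82 (SE 0.20, adjusted p = 0.48) was among the largest of the 10, and it passed with DESeq2 (adjusted p = 0.0153).

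Cited1 (chromosome X, 102247381 to 102252181, minus strand), a transcriptional coactivator, was at 12.5, 11.9, 18 and 11.9 CPM in Ctrl_RD and at 6.94, 7.77, 7.26 and 12.2 CPM in Ctrl_HFD. Replicates 1 to 3 on high-fat diet lay below every regular-diet library, whereas replicate 4 lay inside their range. The difference was -0.89 (SE 0.17, adjusted p = 0.267), and -0.67 without the batch term. Sars2, the seryl-tRNA synthetase of mitochondria, was at 14.1, 16.7, 15.2 and 11.6 CPM against 9.63, 9.66, 9.02 and 9.94 CPM, with no overlap and a difference of -0.60 (SE 0.15, adjusted p = 0.48). Tmem108, a transmembrane protein gene that overlaps a gene on the other strand, was at 38.7, 36.8, 34.3 and 42.6 CPM against 24.7, 26.2, 27.3 and 26 CPM, also without overlap, at -0.55 (SE 0.13, adjusted p = 0.48). The remaining 4 were the splicing factor gene Sugp1 at -0.38, the glutamate transporter gene Slc1a7 at -0.58, the lysosomal membrane gene Tmem192 at -0.36 and the transcriptional regulator gene Hes6 at -0.39. Of these 4, Tmem192 and Hes6 separated the groups, and Ctrl_HFD replicate 4 lay within the Ctrl_RD range for Sugp1 and Slc1a7. With limma-voom all 10 lower and 9 of the 10 higher genes passed, but without the batch term only 4 lower and 4 higher ones did.

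**Figure D1:**
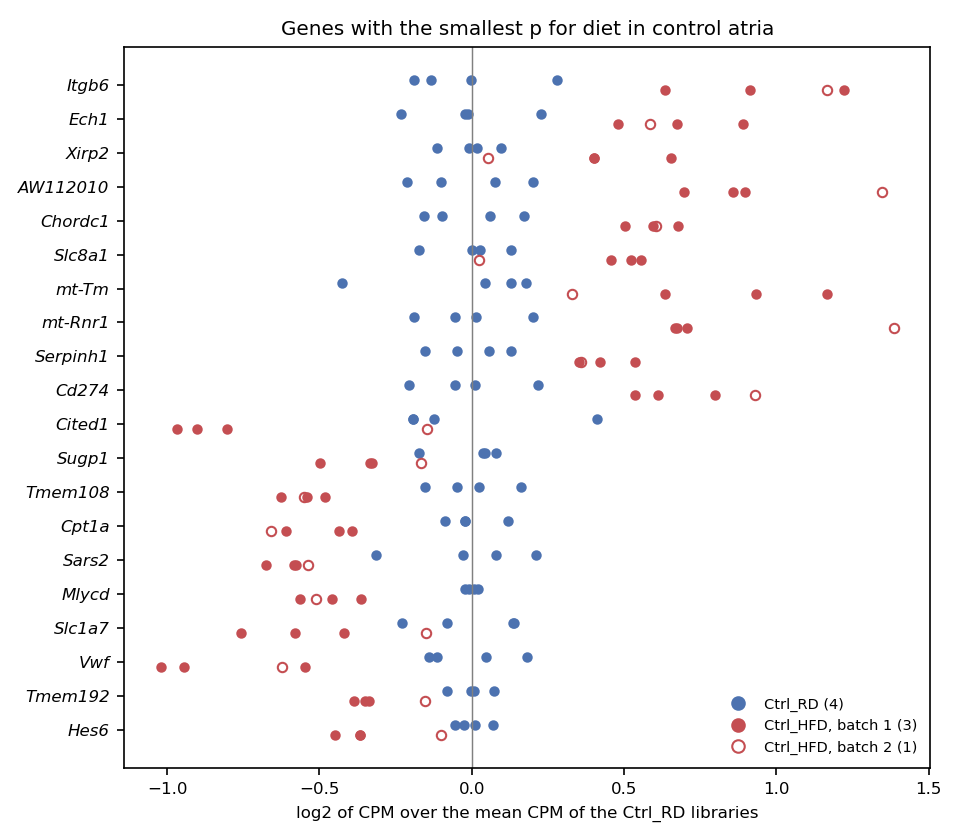
Each point is 1 library, and the horizontal axis gives the log2 of its CPM over the mean of the 4 Ctrl_RD libraries, for the 10 higher and the 10 lower genes with the smallest p. Blue points are Ctrl_RD, filled red points Ctrl_HFD of batch 1 and open red points Ctrl_HFD replicate 4. The groups are apart for 8 higher and 7 lower genes, and in the other 5 (Xirp2, Slc8a1, Cited1, Sugp1 and Slc1a7) the open point lies among the blue ones.

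Genes of fatty acid oxidation did not move in 1 direction. Of 24 genes of mitochondrial fatty acid import and beta-oxidation tested, 0 passed with edgeR, 8 were higher and 2 lower at an unadjusted p under 0.05, against 3.73% and 4.76% of all genes, and DESeq2 called 4. The median was 0.09, beside -0.005 over all genes. The list was described after its values were seen. Enzymes of the mitochondrial matrix and inner membrane made up the higher members. Decr1, a reductase that like Ech1 handles unsaturated fatty acids, was at 219, 245, 229 and 236 CPM in Ctrl_RD and 340.3, 286, 287 and 272 CPM in Ctrl_HFD. The groups did not overlap, at 0.39 (SE 0.10, adjusted p = 0.48). Acadvl, which takes the opening step on very long chains, was at 226, 214, 188 and 208 CPM against 282, 257, 259 and 213 CPM. Ctrl_HFD replicate 4 lay within the regular-diet range of Acadvl, and the difference was 0.35 (SE 0.09, adjusted p = 0.48). Both subunit genes of the trifunctional protein, which carries out later steps of the cycle, were without overlap, Hadha at 0.30 (SE 0.10) and Hadhb at 0.32 (SE 0.11). The 2 lower members were Cpt1a and Mlycd, at the entry into mitochondria. DESeq2 called Decr1, Acadvl, Cpt1a and Mlycd, each with an adjusted p of 0.035.

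Cd36 (chromosome 5, 17781690 to 17888801, minus strand), the fatty acid transporter of the cell membrane, was at 547, 573, 510.1 and 615 CPM in Ctrl_RD and 808, 748, 697 and 659.6 CPM in Ctrl_HFD. No library of the groups overlapped. The means were 561 ± 43.9 CPM (SD, n = 4) and 751 ± 55.1 CPM (SD, n = 3, batch 1), and the difference was 0.42 (SE 0.10, adjusted p = 0.48), with a DESeq2 adjusted p of 0.0111. Among all 17 genes of fatty acid uptake and transport, the median was 0.04. At an unadjusted p under 0.05, 2 were higher and 0 lower, against 3.73% and 4.76% of all genes. The other of the 2 was Fabp3, the heart's cytosolic fatty acid binding protein gene, at 0.29 (SE 0.13).

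Targets of PPAR lay mostly below 0, although Cd36 and Acadvl are counted among them, and 0 passed with edgeR. Of 24 tested, 19 lay below 0 with a median of -0.18, 4 were higher and 5 lower at an unadjusted p under 0.05 (3.73% and 4.76% of all genes), and in 6 all 4 Ctrl_HFD libraries lay below all 4 Ctrl_RD libraries (2.9% of all genes). The medians by library were -0.01, -0.00, -0.02 and 0.02 in Ctrl_RD, relative to that group's mean, and -0.14, -0.22, -0.18 and -0.34 in Ctrl_HFD, without overlap. Their summed level, which the abundant members set, did overlap, at 5212 to 6004 CPM and 4713 to 6158 CPM, with Ctrl_HFD replicate 1 the highest of the 8 libraries. This list, too, was described after its values were seen. Pdk4 (chromosome 6, 5483351 to 5496309, minus strand), a kinase that switches off pyruvate dehydrogenase, was at 445, 416, 485 and 562 CPM in Ctrl_RD and 343, 273, 197 and 184 CPM in Ctrl_HFD. The highest high-fat library lay below the lowest regular-diet library, and the difference was -0.82 (SE 0.29, adjusted p = 0.524). Plin5, which coats lipid droplets beside mitochondria, was at 59.4, 51, 54.8 and 65.4 CPM against 52.5, 38.5, 36.9 and 34.3 CPM. Ctrl_HFD replicate 1 of Plin5 lay within the regular-diet range, and the difference was -0.44 (SE 0.16, adjusted p = 0.524). Angptl4, an inhibitor of lipoprotein lipase, was at 19.6, 19.7, 26.4 and 36.2 CPM against 25.3, 32.3, 7.26 and 13.1 CPM, groups that overlapped widely, at -0.22 (SE 0.39, adjusted p = 0.891). Its sign turned with limma-voom (0.11) and without Ctrl_HFD replicate 3 (0.19), and without Ctrl_RD replicate 4 it was at 0.005. Creb3l3, a membrane-bound transcription factor of lipid metabolism, had 17, 16, 9 and 14 counts in Ctrl_RD and 8, 4, 1 and 3 in Ctrl_HFD, too few for a firm value.

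Fatty acid synthesis and fat breakdown were represented by a few lower genes. Of 26 synthesis and desaturation genes the median was -0.06. At an unadjusted p under 0.05, 1 was higher and 3 lower, against 3.73% and 4.76% of all genes. Fasn (chromosome 11, 120805846 to 120824547, minus strand), the fatty acid synthase gene, was at 38.6, 29.7, 30.1 and 25.8 CPM in Ctrl_RD and 21.6, 21.4, 25.1 and 22.5 CPM in Ctrl_HFD, apart by a narrow margin. Its difference was -0.46 (SE 0.16, adjusted p = 0.524). Scd1, a desaturase gene, was at 44.5, 36.5, 40.5 and 46.9 CPM against 32.2, 37.2, 33.6 and 30.6 CPM, overlapping, at -0.30 (SE 0.17, adjusted p = 0.65). The triglyceride lipase gene Pnpla2 was at -0.44 (SE 0.16) and the hormone-sensitive lipase gene Lipe at -0.38 (SE 0.15), both without overlap. The 26 genes of cholesterol synthesis and the LDL receptor had a median of -0.02, with 0 higher and 1 lower at an unadjusted p under 0.05.

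**Figure D2:**
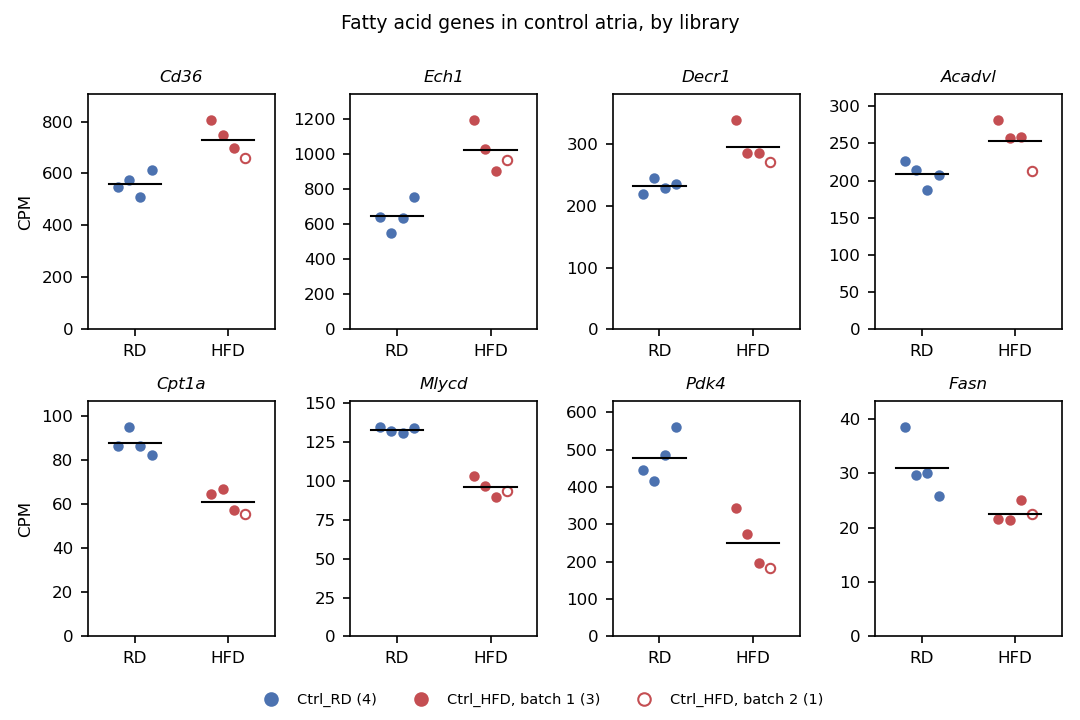
CPM of 8 fatty acid genes in each control library, on axes that start at 0. Blue points are Ctrl_RD, filled red points Ctrl_HFD of batch 1, open red points Ctrl_HFD replicate 4 and black lines group means over 4 libraries. Cd36, Ech1 and Decr1 lie higher on high-fat diet, Acadvl does so except in replicate 4, and Cpt1a, Mlycd, Pdk4 and Fasn lie lower in every high-fat library.

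Of the cytosolic heat shock chaperones, 20 lay above 0 and 7 below. Over the 27 tested, 9 were higher and 0 lower at an unadjusted p under 0.05 (3.73% and 4.76% of all genes). All 4 Ctrl_HFD libraries were on top for 7 (3.07% of all genes), and the median was 0.17. By library the list's median was 0.004, 0.046, -0.058 and 0.079 in Ctrl_RD and 0.173, 0.176, 0.174 and 0.079 in Ctrl_HFD. Replicate 4 thus had the same value in both groups. The summed level overlapped, at 6596 to 7765 CPM in Ctrl_RD and 6795 to 7726 CPM in Ctrl_HFD. With edgeR 0 passed, and limma-voom called 3. DESeq2 called 0, but it gave no adjusted p to Chordc1, which therefore could not pass there. Hsp90aa1 (chromosome 12, 110690605 to 110702728, minus strand), the inducible cytosolic HSP90 gene, was at 42.5, 48.7, 39.5 and 61.3 CPM in Ctrl_RD and 74.8, 86.5, 70.8 and 67.6 CPM in Ctrl_HFD, with a gap of a few CPM between the groups. The difference was 0.69 (SE 0.20, adjusted p = 0.509). Chordc1 (chromosome 9, 18292125 to 18317442, plus strand), a cochaperone of HSP90, was at 22, 22.9, 25.6 and 27.6 CPM against 37.1, 39.2, 34.8 and 37.4 CPM. Its groups lay well apart, at 0.60 (SE 0.13, adjusted p = 0.48). Another HSP90 cochaperone gene, Ahsa2, was at 0.39 (SE 0.10), and Hspa8, the constitutive HSP70 gene, at 0.39 (SE 0.12), both without overlap. HSP70 and HSP90 genes have near-identical copies, and read pairs that map to several places were left out of the counts.

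Of 5 genes of this response looked up (Hsp90aa1, Chordc1, Ahsa2, Serpinh1 and Hsph1), 4 were matched in RefSeq's promoter windows of build GRCm38.p6, and 2 of them, Chordc1 and Hsph1, held the core of the heat shock element GAANNTTC, which reads the same on both strands in the 300 bases around the start. It occurs in 5.74% of the windows of all tested genes with an entry. In Chordc1 it occurs 2 times around the start site, beginning 4 bases before it and 6 bases after it. The window is shown because Chordc1 was the chaperone gene with the smallest p, from 100 bases before the start over 20 bases from it, with both copies in capitals.
Chordc1 chr9:18292167-18292286 (+): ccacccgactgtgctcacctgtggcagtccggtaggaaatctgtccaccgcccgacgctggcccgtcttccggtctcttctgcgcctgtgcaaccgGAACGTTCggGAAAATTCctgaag

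Cirbp (chromosome 10, 80165985 to 80172786, plus strand), an RNA-binding protein induced by cold, lay on the other side, at 101, 99.1, 90.3 and 98.8 CPM in Ctrl_RD and 78.5, 76.5, 57.8 and 72.1 CPM in Ctrl_HFD. The groups did not overlap, and the difference was -0.45 (SE 0.13, adjusted p = 0.503).

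Genes of the endoplasmic reticulum and integrated stress response had a median of 0.22 over 34 tested members, 26 of them above 0. At an unadjusted p under 0.05, 11 were higher and 1 lower, against 3.73% and 4.76% of all genes, and 0 passed with edgeR. Mthfd2, a mitochondrial folate enzyme that the stress factor ATF4 induces, was at 5.56, 5.19, 3.83 and 5.61 CPM in Ctrl_RD and 13.6, 8.29, 6.9 and 6.99 CPM in Ctrl_HFD. Replicate 1 stood out among the high-fat libraries, and the groups were apart, at 0.93 (SE 0.23, adjusted p = 0.48). Atf5, a transcription factor of the same response, was at 80.7, 75.9, 82.5 and 88.8 CPM against 122, 102, 90.2 and 105 CPM, without overlap, at 0.36 (SE 0.11, adjusted p = 0.517). Atf6, a sensor in the reticulum membrane, was at 0.29 (SE 0.09). The lower member was Ppp1r15a, which ends the block on translation, at -0.40 (SE 0.13). By library the list's median was 0.02, 0.00, -0.02 and 0.02 in Ctrl_RD and 0.22, 0.30, 0.05 and 0.06 in Ctrl_HFD. Replicates 3 and 4 of the high-fat group were thus close to the regular-diet libraries.

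Mitochondrially encoded genes were all above 0 (11 of 11), and 3 were higher at an unadjusted p under 0.05 (3.73% of all genes). Their median was 0.33. By library this median was -0.02, 0.05, -0.21 and 0.22 in Ctrl_RD and 0.58, 0.33, -0.07 and -0.02 in Ctrl_HFD, so that replicates 1 and 2 lay above the regular-diet range and replicates 3 and 4 within it. Mitochondrial genes took 18.7 to 21.9% of counts in Ctrl_RD and 20.4 to 26.6% in Ctrl_HFD. mt-Nd2, a subunit of complex I, was at 20330, 20540, 14940 and 21150 CPM against 30930, 29050, 23290 and 25100 CPM, apart, at 0.53 (SE 0.15, adjusted p = 0.509). mt-Nd3, another subunit of complex I, was at 27.7, 22, 15.4 and 32.7 CPM against 40.6, 51.2, 38.6 and 70.8 CPM, also apart and highest in replicate 4, at 0.83 (SE 0.34, adjusted p = 0.54). The ribosomal RNA genes, like mt-Nd3 and unlike the list's median, were highest in replicate 4. mt-Rnr1 (chromosome M, 70 to 1024, plus strand) was at 892, 852, 775 and 1017 CPM in Ctrl_RD and 1403, 1412, 1443 and 2310 CPM in Ctrl_HFD, and mt-Rnr2 at 1846, 1595, 1389 and 2075 CPM and 2890, 2720, 2663 and 3682 CPM. In both, every high-fat library was above every regular-diet library and replicate 4 was the highest. The differences were 0.68 (SE 0.16, adjusted p = 0.48) and 0.68 (SE 0.17, adjusted p = 0.48). Both passed with DESeq2 (adjusted p = 0.0111 and 0.0237), although the libraries were made from polyadenylated RNA. The tRNA gene mt-Tm, which adjoins mt-Nd2, was at 31.1, 30, 20.4 and 28.2 CPM against 61.5, 52.4, 42.6 and 34.4 CPM, at 0.93 (SE 0.20, adjusted p = 0.48).

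Of 73 nuclear genes of the respiratory chain 66 were above 0, with a median of 0.17. At an unadjusted p under 0.05, 1 was higher and 0 lower, against 3.73% and 4.76% of all genes. Their median by library was -0.083, 0.025, -0.134 and 0.215 in Ctrl_RD and 0.351, 0.15, -0.014 and 0.079 in Ctrl_HFD. Only Ctrl_HFD replicate 1 lay above the regular-diet range, and the other high-fat libraries lay within it. The 88 cytosolic ribosomal protein genes had 82 above 0 and a median of 0.11, with 0 at an unadjusted p under 0.05 in either direction. By library the ribosomal list lay at -0.15, -0.05, -0.13 and 0.33 in Ctrl_RD and 0.37, 0.11, -0.13 and 0.13 in Ctrl_HFD. Ctrl_RD replicate 4 and Ctrl_HFD replicate 1, the highest libraries on the first principal component within their groups, were also the highest in this list.

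The differences ran with the GC content of the genes. Over the 15890 of 16168 genes with a GC value, the higher ones at an unadjusted p under 0.05 had a median GC content of 45.5%, the lower ones 55.7% and all genes 50.7%, and across genes the log2 difference had a Spearman's rho of -0.387 with GC content and 0.008 with length. With offsets for GC content and length in each library that rho was 0.014. The median of the mitochondrially encoded genes was 0.10 with the offsets, that of the chaperones 0.15, of the interferon list 0.20, of the matrix list -0.23 and of the endoplasmic reticulum list 0.20. Ech1 was at 0.75 with the offsets, Chordc1 at 0.45, Cpt1a at -0.40, Mlycd at -0.31, Vwf at -0.76 and AW112010 at 0.62. Several values shrank by more than 1.5 times, among them the mitochondrially encoded median, which was 0.33 without the offsets. Cd36 went from 0.42 to 0.26, mt-Rnr1 from 0.68 to 0.42, mt-Nd2 from 0.53 to 0.26 and mt-Nd3 from 0.83 to 0.495. mt-Cytb went from 0.33 to 0.11 and mt-Nd4 from 0.24 to -0.02. Hes6 went from -0.39 to -0.24, Fasn from -0.46 to -0.31, Fbln2 from -0.37 to -0.22, Col18a1 from -0.41 to -0.25 and Flt4 from -0.26 to -0.15. Angptl4, Nampt, Lrrc10 and Pcna, with smaller differences, shrank by more than 1.5 times as well.

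Most genes of the interferon response lay above 0. Of 37 tested, 33 were above 0. At an unadjusted p under 0.05, 9 were higher and 0 lower, against 3.73% and 4.76% of all genes. In 7 all 4 Ctrl_HFD libraries lay above all 4 Ctrl_RD libraries, where all genes give 3.07%. By library the list's median was -0.21, -0.30, 0.25 and 0.32 in Ctrl_RD and 0.48, 0.11, 0.30 and 0.90 in Ctrl_HFD, so that replicates 2 and 3 of the high-fat group lay within the regular-diet range. The median difference was 0.23, and 0.37 without the batch term. With edgeR and limma-voom 0 passed. DESeq2 called 0 as well, but it gave no adjusted p to Igtp, Irgm2 and Iigp1, which therefore could not pass there. Igtp (chromosome 11, 58199556 to 58207591, plus strand), a GTPase that defends cells against intracellular parasites, was at 13.2, 16.6, 21.4 and 23 CPM in Ctrl_RD and 28.7, 23.6, 34.7 and 59 CPM in Ctrl_HFD. Irgm2 (chromosome 11, 58199618 to 58222782, plus strand), of the same family, was at 22.3, 19, 29.9 and 30.2 CPM against 34.7, 32.5, 44.7 and 51.5 CPM. The annotated spans of Igtp and Irgm2 overlap on the same strand, and read pairs over both were left out, so their counts are uncertain. The differences were 0.64 (SE 0.19, adjusted p = 0.517) and 0.55 (SE 0.16, adjusted p = 0.509). Gbp2, a guanylate-binding protein gene, was at 33.8, 42.1, 38.2 and 44.5 CPM against 62.3, 56.7, 54.7 and 79.6 CPM, at 0.55 (SE 0.17, adjusted p = 0.522). Iigp1, another GTPase gene of this response, was at 20.1, 24.1, 27.6 and 29.9 CPM against 38, 33.4, 42.9 and 70.4 CPM, at 0.58 (SE 0.16, adjusted p = 0.48). In each of these 4 genes the groups were apart and Ctrl_HFD replicate 4, which the main contrast does not use, was the highest. Psmb9, a subunit of the immunoproteasome, was at 0.54 (SE 0.17) and also without overlap.

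Of 6 genes of this group looked up (Gbp2, Igtp, Irgm2, Psmb9, Cd274 and Iigp1), 5 were matched in RefSeq's promoter windows of build GRCm38.p6. The core of the interferon-stimulated response element, GAAANNGAA on either strand, was found in 4 of them, and it occurs in 7.38% of the windows of tested genes. The gamma-activated site TTCNNNGAA, searched on both strands as well, was found in 2, Igtp and Irgm2, against 6.84% of windows. The windows of these 2 genes are nearly alike around both motifs, so their matches are not independent for either motif. Psmb9 held neither motif. The windows of the 4 genes are shown because they held a match, from 100 bases before the start over 20 bases from it. Capitals mark both motifs, which lie close together in Igtp and Irgm2. The response element begins 58 bases before the start in Gbp2, 34 in Igtp, 64 in Irgm2 and 76 in Cd274, and the gamma-activated site 45 in Igtp and 75 in Irgm2. For comparison, the nuclear receptor element AAAGGTCA, searched on both strands in 5 matched fatty acid genes (Ech1, Cd36, Acadvl, Cpt1a and Mlycd), was found in 0, against 1.14% of windows. A match is a description of the letters, and binding was not measured.
Gbp2 chr3:142620563-142620682 (+): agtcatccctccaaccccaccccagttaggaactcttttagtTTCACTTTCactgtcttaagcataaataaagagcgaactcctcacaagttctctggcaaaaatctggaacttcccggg
Igtp chr11:58199456-58199575 (+): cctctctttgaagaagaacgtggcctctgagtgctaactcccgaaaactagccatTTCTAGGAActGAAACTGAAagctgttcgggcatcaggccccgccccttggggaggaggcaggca
Irgm2 chr11:58214877-58214996 (+): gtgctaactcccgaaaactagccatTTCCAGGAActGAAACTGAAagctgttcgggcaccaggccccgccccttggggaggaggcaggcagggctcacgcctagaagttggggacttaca
Cd274 chr19:29367338-29367457 (+): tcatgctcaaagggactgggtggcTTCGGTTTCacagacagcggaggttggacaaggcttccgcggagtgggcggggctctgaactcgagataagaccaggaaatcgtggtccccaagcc

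**Figure D3:**
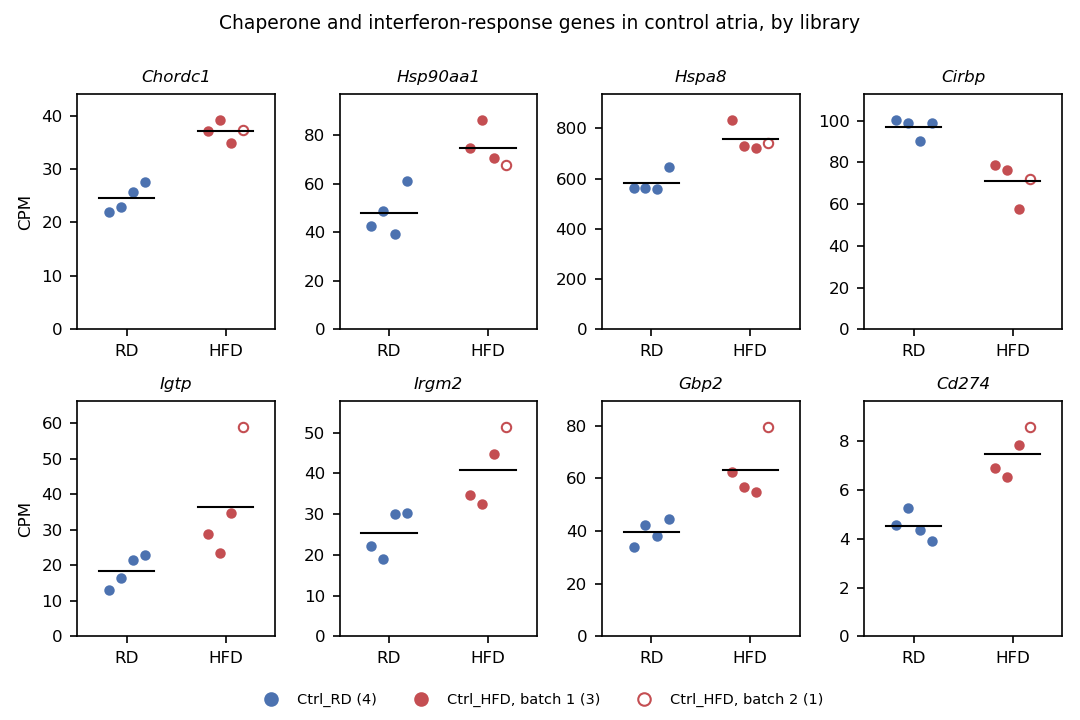
CPM of 4 genes of protein folding and cold (upper row) and 4 interferon-response genes (lower row) in each control library, on axes that start at 0. Colours and lines are as for the fatty acid genes. Chordc1, Hsp90aa1 and Hspa8 lie higher and Cirbp lower in every high-fat library, and the open point, Ctrl_HFD replicate 4, is the highest of all in the 4 genes of the lower row.

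Markers of MHC class II presentation and of T and NK cells were highest in Ctrl_HFD replicate 4, whereas macrophage markers were highest in Ctrl_RD replicate 4. The 7 genes of MHC class II antigen presentation were all above 0, with a median of 0.25, and 0.66 without the batch term. Their summed level was 419 to 818 CPM in Ctrl_RD and 566 to 1673 CPM in Ctrl_HFD. H2-Aa was at 83, 94.9, 165 and 199 CPM against 192, 201, 221 and 473 CPM and Cd74 at 196, 214, 369 and 272 CPM against 216, 313, 408 and 719 CPM. Replicate 4 was far above the others in both, and the ranges of the remaining libraries overlapped. Markers of T and NK cells (11 tested, 9 above 0, median 0.27) summed to 8.77 to 11.3 CPM and 9.4 to 21.3 CPM, and replicate 4 held the highest value there too. Macrophage markers had a median of -0.01 (9 of 18 above 0) and summed to 849 to 1273 CPM and 939 to 1217 CPM. Markers of B cells had a median of -0.31 (2 of 9 above 0, sums 24.2 to 34.4 and 24.8 to 35.6 CPM), and those of monocytes and neutrophils -0.34, or 0.015 with limma-voom (7 of 12 tested, sums 9.98 to 21.4 and 16.2 to 30 CPM). The part of immune cell number in the interferon values was not tested.

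Extracellular matrix genes were lower as a list. Of 45 tested, 40 were below 0 with a median of -0.31, and 0 passed with edgeR. At an unadjusted p under 0.05, 6 were lower and 0 higher, against 4.76% and 3.73% of all genes. Fn1, fibronectin, was at 117, 124, 160.2 and 100.4 CPM in Ctrl_RD and 76.7, 91.5, 86.7 and 78.7 CPM in Ctrl_HFD. The small proteoglycan gene Bgn was at 945, 1007, 1182 and 998 CPM against 793, 718, 890 and 849 CPM. In both, all high-fat libraries lay below all regular-diet libraries, at -0.56 (SE 0.20, adjusted p = 0.524) and -0.37 (SE 0.15, adjusted p = 0.532). The matrix genes Fbln2 and Col18a1 were also without overlap, at -0.37 (SE 0.15) and -0.41 (SE 0.17). By library the list's median was -0.04, -0.16, 0.38 and -0.11 in Ctrl_RD and -0.44, -0.27, -0.14 and -0.12 in Ctrl_HFD. Ctrl_RD replicate 3 was far above the other regular-diet libraries, whose values overlapped those of Ctrl_HFD replicates 3 and 4. Without Ctrl_RD replicate 3 the list's median log2 difference was -0.14. Fibroblast markers had a median of -0.04 over 13 genes. The 14 genes of collagen processing were divided, with 3 higher and 3 lower at an unadjusted p under 0.05, against the same shares of all genes. Serpinh1 and the prolyl hydroxylase gene P4ha1 (0.31, SE 0.10) were higher in every high-fat library.

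Endothelial markers leaned lower, though the list was described after its values were seen. The 14 tested had a median of -0.13. At an unadjusted p under 0.05, 1 was higher and 5 were lower, against 3.73% and 4.76% of all genes. Their summed level was 1813 to 2422 CPM in Ctrl_RD and 1625 to 1777 CPM in Ctrl_HFD, without overlap, but the list's median by library overlapped, at -0.10, -0.13, 0.05 and 0.10 in Ctrl_RD and -0.21, -0.12, -0.16 and -0.09 in Ctrl_HFD. Without Vwf the sums overlapped too, at 1563 to 2136 CPM and 1436 to 1633 CPM. Beside Vwf, Ece1, the enzyme that activates endothelin, was at 215, 235, 260.1 and 278 CPM against 174, 188, 176 and 184 CPM, without overlap, at -0.46 (SE 0.13, adjusted p = 0.48). The higher member was Tmem100, an endothelial membrane gene, at 0.30 (SE 0.11). Lymphatic endothelial markers had a median of 0.26 over 6 genes, 4 above 0 and 2 below. Their sums overlapped, at 100 to 152 CPM in Ctrl_RD and 88.6 to 130 CPM in Ctrl_HFD. Mmrn1 was at 0.85 (SE 0.31) with overlap, and Ctrl_HFD replicate 4 was its lowest control library (0.93 CPM). Flt4 was at -0.26 (SE 0.14). Blood in the tissue was uneven: red cell markers were below 0 in 6 of 6 tested, with a median of -0.49, but their sum ranged from 425 to 1606 CPM in Ctrl_RD alone and from 571 to 795 CPM in Ctrl_HFD.

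Epicardial and mesothelial markers were above 0 in 13 of 13, with a median of 0.42. At an unadjusted p under 0.05, 1 was higher (3.73% of all genes), and 0 separated the groups. Aldh1a2, which makes retinoic acid in the epicardium, was at 23.4, 28.4, 19.5 and 33.3 CPM in Ctrl_RD and 40.8, 42.2, 31.7 and 44.3 CPM in Ctrl_HFD. Only Ctrl_HFD replicate 3 lay within the regular-diet range, and the difference was 0.55 (SE 0.21, adjusted p = 0.532). The list summed to 456 to 699 CPM and 557 to 947 CPM, with Ctrl_RD replicate 4 above Ctrl_HFD replicate 3.

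Genes of white fat cells were below 0, and the defining ones rested on few reads. All 10 tested were below 0 with a median of -1.37, and the defining markers Adipoq and Plin1 were at or below 3.73 CPM in every library. The list's sums overlapped, at 420 to 574 CPM in Ctrl_RD and 379 to 495 CPM in Ctrl_HFD. At an unadjusted p under 0.05, 1 was lower (4.76% of all genes), the more abundant Lipe (36.4 to 56.6 CPM). Adipoq, which encodes adiponectin, had 84, 26, 32 and 95 counts in Ctrl_RD and 36, 14, 6 and 3 in Ctrl_HFD, or 2.73, 1.63, 1.66 and 3.73 CPM and 1.4, 0.435, 0.363 and 0.148 CPM. The groups did not overlap, yet the SE was 0.92 on a log2 difference of -1.71 (adjusted p = 0.627). The list of brown fat markers had a median of 0.20 over the 5 of 10 that could be tested. Cox7a1 and Cox8b among them averaged 653 and 569 CPM in Ctrl_RD, and which cells they came from was not tested. Ventricular muscle markers had a median of -0.42 over 4 genes. Myl2, the ventricular myosin light chain, had 2467 counts in Ctrl_RD replicate 1 and 32 to 120 in the other 7 libraries. Without that library its log2 difference was -0.49 in place of -2.87. The 29 genes of cell division had a median of -0.21, with 0 at an unadjusted p under 0.05 in either direction.

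**Figure D4:**
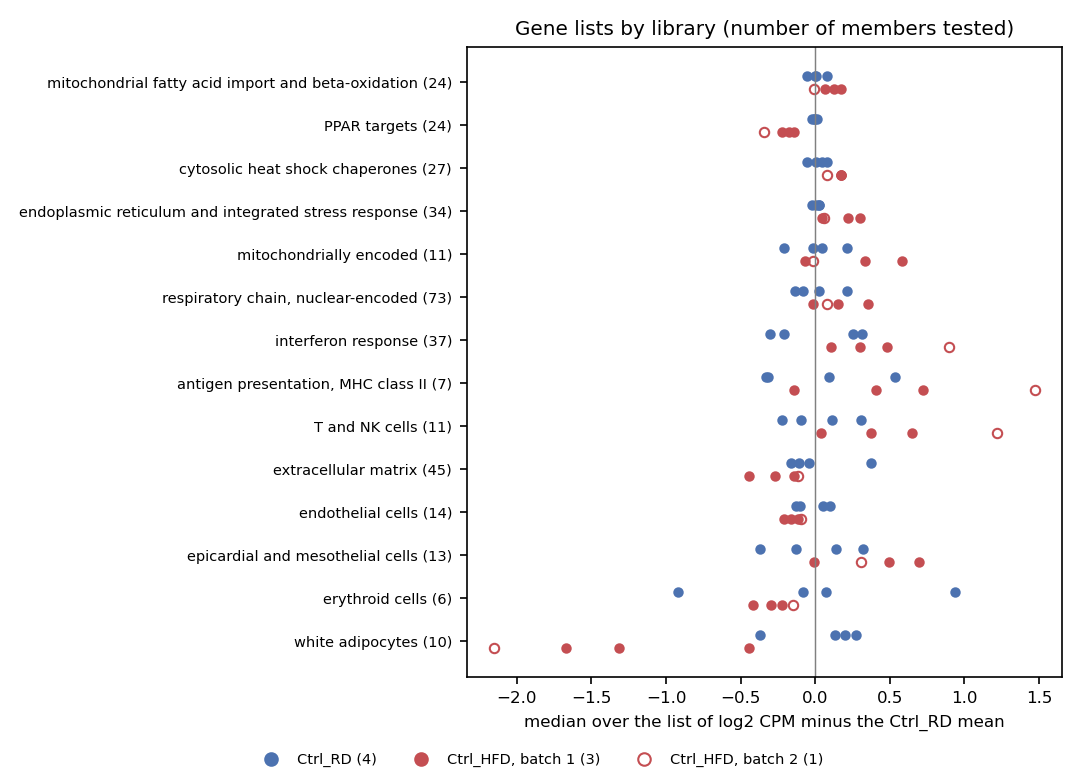
For each gene list, every point is 1 control library and gives the median over the list's tested members of log2 CPM minus the Ctrl_RD mean. Colours are as in the other plots, and the number of members tested stands behind each name. PPAR targets, the endoplasmic reticulum list and white fat markers have no high-fat library among the regular-diet ones, and Ctrl_HFD replicate 4 (open) lies farthest to the right in the interferon, MHC class II and T cell lists.

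Among heart muscle genes outside these groups, chosen after their values were seen, a few stood apart. Nppa, the atrial natriuretic peptide, among the most abundant messages of the atrium, was at 21530, 20580, 22030 and 21030 CPM in Ctrl_RD and 18760, 17160, 16320 and 17000 CPM in Ctrl_HFD. The groups lay apart at -0.29 (SE 0.10, adjusted p = 0.524), and DESeq2 called the gene (adjusted p = 0.0416). Fhl2, a LIM-domain protein of the sarcomere, was at 368, 335, 324 and 362 CPM against 467, 520.1, 498 and 396 CPM, without overlap, at 0.51 (SE 0.15, adjusted p = 0.509). Of 29 calcium cycling genes, with a median of 0.04, 3 were higher and 2 lower at an unadjusted p under 0.05. For 28 potassium channel genes, with a median of 0.00, these counts were 3 and 0. All genes give 3.73% higher and 4.76% lower. DESeq2 also called Nexn, of the sarcomere's Z-disc, at 0.35 (adjusted p = 0.0411), the scavenger receptor gene Stab1 at -0.41 (adjusted p = 0.0416) and the integrin gene Itgb5 at -0.41 (adjusted p = 0.0416). The 21 sodium and calcium channel and connexin genes had a median of -0.15, with 0 higher and 1 lower at an unadjusted p under 0.05.

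The clock repressor gene Ciart was at 33.3, 39.5, 32 and 23.1 CPM in Ctrl_RD and 26.5, 22.6, 25.2 and 23.5 CPM in Ctrl_HFD. Ctrl_RD replicate 4 lay at the level of the high-fat libraries, and the difference was -0.37 (SE 0.16, adjusted p = 0.548). The 20 clock genes had a median of -0.09. At an unadjusted p under 0.05, 2 were higher and 2 lower, against 3.73% and 4.76% of all genes. The hour of tissue collection is not given in the labels. Ptgds, which makes prostaglandin D, was at 45.6, 41, 45.6 and 41.7 CPM against 37.5, 20.2, 34.6 and 25.8 CPM. Its groups were apart, with a wide spread on high-fat diet, at -0.50 (SE 0.28, adjusted p = 0.635). Genes of NAD synthesis, salvage and use had a median of 0.04 over 29. Among them 1 was higher and 0 lower at an unadjusted p under 0.05, against 3.73% and 4.76% of all genes. The NAD salvage enzyme gene Nampt was at 67.6, 75.9, 65.1 and 82 CPM against 98.8, 83, 73.2 and 75.2 CPM, overlapping, at 0.23 (SE 0.17, adjusted p = 0.722). Nmrk2, the kinase of muscle that takes up nicotinamide riboside into NAD, was at 12.7, 21.6, 10.1 and 13.4 CPM against 23.9, 17.5, 16.6 and 9.44 CPM. It overlapped as well, at 0.43 (SE 0.28, adjusted p = 0.678).

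The same diet in NaV1.5 atria, which share no library with the control groups, was fitted in the same model. There 182 of 16168 genes (1.13%) passed with edgeR, 76 higher and 106 lower. Of the 76, 75 were higher in control atria as well, 49 (64.5%) with an unadjusted p under 0.05, and the control median was 0.27 beside 0.47 in NaV1.5 atria. Of the 106, 105 were lower in control atria, 64 (60.4%) with an unadjusted p under 0.05, and the medians were -0.26 and -0.46. An opposite difference with an unadjusted p under 0.05 was found for 0 of either set. All 4 Ctrl_HFD libraries lay beyond all 4 Ctrl_RD libraries in the same direction for 24 of the 76 and 36 of the 106, where all genes give 3.07% and 2.9%. Read the other way, 554 of the 603 genes higher in control atria at an unadjusted p under 0.05 were higher in NaV1.5 atria, and 698 of the 769 lower ones were lower. In those sets the control medians were 0.34 and -0.35 beside 0.25 and -0.26 in NaV1.5 atria, so each genotype had the larger median in the genes selected in it. Over all genes the pair of log2 differences had a Spearman's rho of 0.452 and a Pearson's r of 0.327, a description across genes, which are not independent replicates and have the same GC content and length in both comparisons.

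Of the leading genes, 7 of the 10 higher and 5 of the 10 lower passed in NaV1.5 atria, among them Ech1 at 0.59 (adjusted p = 0.0258), Chordc1 at 0.78, Xirp2 at 0.54 and Itgb6 at 0.74 in edgeR. Cpt1a (-0.32, adjusted p = 0.0993), Mlycd (-0.26, adjusted p = 0.171) and Vwf (-0.38, adjusted p = 0.246) had the same sign there and did not pass. The difference of the diet effects, control minus NaV1.5, passed for 0 genes (0%) in edgeR, with 366 at an unadjusted p under 0.05 and a smallest adjusted p of 0.9999. The 5 genes with the smallest p for it were the scarce or unnamed transcripts Gm44751, Zpbp, Gm10603, Gm22043 and Gm37607. Among the genes named for other reasons, Pdk4 had the smallest p: it was at -0.82 in control atria and 0.45 in NaV1.5 atria, with an unadjusted edgeR p of 0.00424 for the difference. Hsp90aa1 was at 0.69 and 1.13 (unadjusted p = 0.117), Ciart at -0.37 and -0.999 (0.00805), and Ptgds at -0.50 and -1.62 (0.0104). After adjustment over all genes each of these differences had an adjusted p of 0.9999, so none of them is shown to differ between the genotypes.

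**Figure D5:**
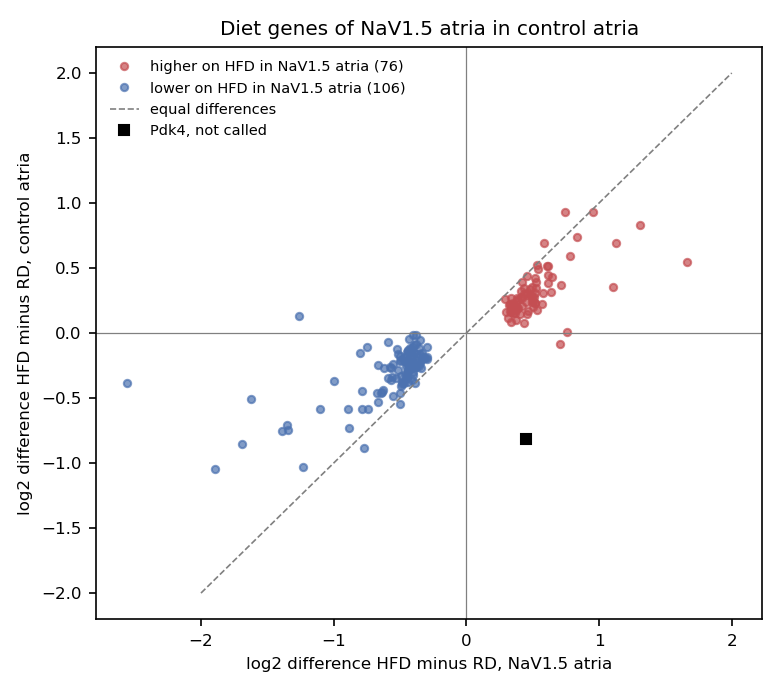
Each point is 1 of the 182 genes that passed for diet in NaV1.5 atria, with its log2 difference there on the horizontal axis and in control atria on the vertical axis. Red points are the 76 higher genes, blue points the 106 lower genes, the dashed line marks equal differences and the black square is Pdk4, which did not pass. All but 1 gene in each colour lie on the same side of 0 in both genotypes.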

How the data were processed

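Whole atria of male mice were sequenced from polyadenylated RNA in stranded libraries, per the labels' protocols. The authors deposited raw counts per gene name, made with featureCounts 2.0.1 on read pairs without use of strand, with pairs over several places or genes left out, per the file headers; STAR 2.7.6a and FastQC 0.11.7 stand in the submitters' processing notes, with build GRCm38. The files list 55292 gene names. Counts were fitted with edgeR 4.0.16 in R 4.3.3 (TMM, filterByExpr, robust quasi-likelihood test, group and batch, 17 libraries, 12 residual degrees of freedom, Benjamini-Hochberg adjustment). DESeq2 1.42.0, limma 3.58.1 (voom with quality weights), other filters and scalings, offsets for GC content and length, replicate blocks and left-out libraries were alternatives, and the scripts were tested on simulated data. A fit with no batch term under DESeq2, limma-voom, the offsets or with a library left out was added after seeing the data. The chi-square per gene between libraries of a group was 7.19 to 38.7, so none was a copy of another. Depth was 16040262 to 33061018 counts per control library, and counting error is only part of the spread.

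Genes were named by a rule: the 10 higher and 10 lower genes of smallest p, since fewer than 5 passed, leaving out predicted genes; the 5 with the smallest p for the difference of diet effects; up to 4 members of each list whose median lay more than 0.2 from that of all genes; and 12 fixed genes. Members and lists were chosen with earlier results of these data known. The lists of fatty acid uptake, beta-oxidation, PPAR targets, fatty acid and cholesterol synthesis, chaperones, respiratory chain, ribosomal proteins, macrophages, fibroblasts, collagen processing, endothelium, channels, calcium, clock and NAD, and the genes Decr1, Acadvl, Hadha, Hadhb, Fabp3, Plin5, Creb3l3, Pnpla2, Lipe, Ahsa2, Hspa8, Hsph1, mt-Rnr2, Psmb9, P4ha1, Ece1, Tmem100, Nppa, Fhl2, Nexn, Stab1 and Itgb5, were outside the rule and were picked after their values were seen. Promoter windows are from RefSeq, GRCm38.p6.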

Additional observations from a re-analysis of the deposited data

Results flagged for a closer look

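Of 192 sets of 4 control libraries checked over the named genes, 17 held a library apart from the other 3 by Dixon's criterion, which chance gives in about 1 in 20 sets. Ctrl_HFD replicate 4, the batch 2 library, was the highest of its group for mt-Rnr1 (2310 CPM, next 1440), Cited1 (12.2, next 7.77), Gm44751 (2.85, next 1.03), H2-Aa (472, next 221) and Cd8a (1.67, next 1.03). Ctrl_RD replicate 3 was the highest of its group for Cited1 (18 CPM, next 12.5), Col18a1 (41.7, next 30.3) and Slc4a1 (1.04, next 0.195), and the lowest for mt-Nd2 (14900, next 20300) and Cirbp (90.3, next 98.8). Ctrl_RD replicate 4 was the lowest for Sugp1 (32.0 CPM, next 37.1) and the highest for Cd79b (3.69, next 2.54) and Cox8b (716, next 536). Ctrl_RD replicate 1 was the highest for Myl2 (80.2 CPM, next 6.06) and the lowest for Gm44751 (0.781, next 3.0). In the high-fat group, Aurka was lowest in replicate 2 (0.87 CPM, next 1.44) and Retn highest in replicate 1 (0.663, next 0.217).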

How the results depend on the processing

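The count of genes that passed for diet in control atria, 0, was 19 with DESeq2, 75 with limma-voom, 1 without the batch term and 5 without a filter on low counts. Without the batch term it was 39 with DESeq2, 10 with limma-voom and 3 with offsets for GC content and length. It was 0 with other size factors, a stricter filter, the control libraries alone, all 29 libraries and the offsets with the batch term. Leaving out 1 library at a time gave 0 with the batch term, and 0 to 1 without it. The replicate block gave 0 with the batch term and 67 over control numbers 2 to 4 without it. Same-numbered libraries correlated at 0.16, 0.067 and 0.077 in their deviations. Libraries of different number correlated at 0.129 (Ctrl_RD 3 with Ctrl_HFD 4) and otherwise at -0.22 to -0.033. So few pairs cannot decide whether libraries of the same number belong together. The count for the difference of diet effects was 0 under every alternative run. Of the alternative values of the 96 named genes, 1049 kept their direction and side of the threshold, 33 passed only in the alternative, 9 turned sign, and 61 kept their direction but had no adjusted p in DESeq2. mt-Nd4 was at -0.023 with the offsets and Angptl4 at 0.11 with limma-voom. With 1 library left out, Angptl4 ranged from -0.621 to 0.185, Myh7 from -0.13 to 0.185, Cd3e from -0.003 to 0.971 and Slc4a1 from -1.261 to 0.196. The cause of these changes was not tested. Genes of few counts, such as Adipoq, are limited by depth, and the contrast by 3 libraries against 4.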
